A study of Mus musculus with 24 samples.

Results

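The genotype difference in the ventromedial hypothalamus (VMH) of mice on high fat diet (HFD) was measured by comparing 3 arrays labelled Gfap-Bmal1 cKO with 3 control arrays, 6 of the 24 arrays of the series. The arrays were chosen by their titles, which give tissue, genotype, diet and replicate. All 6 came from total RNA of VMH dissected from frozen brain sections of 100 um, and both genotypes had eaten HFD for 16 weeks. The other VMH arrays were of the same genotypes on standard diet (SD), and the remaining 12 were of brown adipose tissue (BAT). Bmal1 is the clock gene that the cKO label names, and Gfap, a gene of astrocytes, is the gene that directs its deletion. The labels used here give no exact alleles, no age or sex of the mice and no hour of tissue collection. Nor do they tie each array to an animal of its own. The p-values therefore reflect array-to-array spread within groups, part of which may be technical. In VMH, limma, the test used below, took this spread from all 12 arrays, those on SD included.

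BMAL1 pairs with CLOCK or NPAS2 on E-box sequences and drives the PER and CRY repressors, whose proteins close the daily loop. Astrocytes carry this clock, clear glutamate, buffer potassium and supply neurons with lactate and lipids. The VMH is a glutamatergic nucleus that senses glucose and leptin and drives energy expenditure, in part through sympathetic outflow to BAT. The study asked how the astrocyte clock bears on energy expenditure through stress responses of this nucleus.

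Each value below is a deposited log2 signal, so a difference of 1 is a 2-fold change. The 6 arrays had medians of 8.06 to 8.10 over the 16211 tested genes and correlated at 0.996 to 0.997 within a group and at 0.994 to 0.997 between groups. VMH markers were present on every array: Fezf1 lay between 15.03 and 15.60, the glutamate transporter gene Slc17a6 between 15.6 and 16.0, and Nr5a1 between 8.08 and 8.47. The dissections also held neighbouring nuclei. Pmch, a peptide of the lateral hypothalamus, was at 16.5 on control array 1 and between 11.9 and 15.1 on the other arrays.

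Among the 6 arrays, 2 stood apart in a few genes. On cKO array 2 the pituitary hormone gene Prl was at 17.4, against 4.38 to 4.51 on the other 5, and Gh was at 13.7, against at most 5.01. Of 10 pituitary markers on the array, 9 were highest there. On cKO array 3 the arcuate peptide gene Npy was at 10.6, against 7.25 to 8.22, and the immunoglobulin gene Ighv1-26 was at 8.97, against 4.55 to 4.74. The comparison is therefore given with and without cKO array 2 where it bears on a result: without it 32 genes passed the threshold, of which 30 were among the 49 that passed with it. With the hormone genes left out of the table, 49 genes passed. Of those hormone genes only Gh and Pomc were tested, and neither had passed. That fit keeps cKO array 2, so it does not show whether pituitary tissue bears on other genes.

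Bmal1 itself, annotated as Arntl, was at 9.22, 8.83 and 8.80 on the control arrays and at 9.54, 8.99 and 9.04 on the cKO arrays. The groups overlapped, and the cKO mean was not the lower one. The difference was 0.24 (two-sided exact permutation p = 0.4, where 0.1 is the smallest that 20 rearrangements allow; limma adjusted p = 0.615). Which exons were deleted is not stated in the labels, so this feature may lie outside them. In bulk tissue, cells without the deletion would also contribute Bmal1 transcripts. Neither was tested. The direction of every difference rests on the cKO label.

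In the cKO arrays 39 genes rose and 10 fell at an adjusted p under 0.05 by limma with Benjamini-Hochberg adjustment, 49 of 16211 tested genes (0.302%; 0.241% higher and 0.0617% lower). At an unadjusted p under 0.05 there were 1833 genes, or 11.3% (7.75% higher and 3.55% lower). The arrays of the 2 groups did not overlap for any of the 49 genes, which 20.1% of all tested genes also showed. Of the 49, 39 were protein coding, and of these 33 rose and 6 fell. The change was 1 or more on the log2 scale for 14 of the 49 and under 0.5 for 9. The median difference over all tested genes was 0.03, and 59.6% of them were positive.

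**Figure D1:**
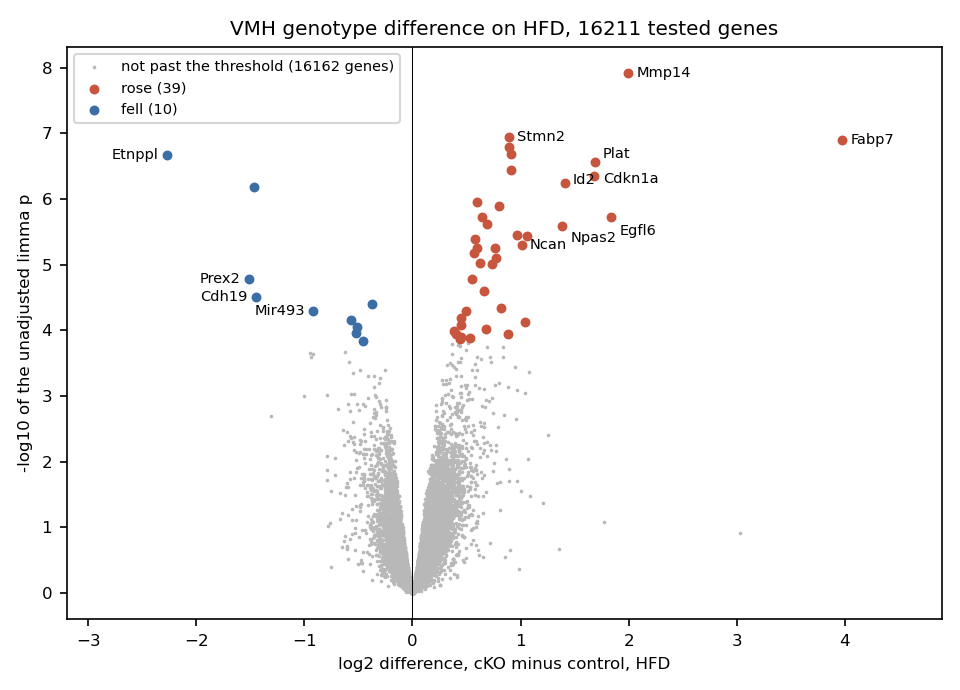
Log2 difference between cKO and control arrays on HFD (x axis) against -log10 of the unadjusted limma p (y axis), with 1 point for each of 16211 tested genes. Red points are the 39 genes that rose and blue points the 10 that fell; Fabp7 lies farthest to the right at 3.98 and Etnppl farthest to the left at -2.27.

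The set of 49 depended on single arrays. The count was 31 without control array 3 or cKO array 3, and 32 without control array 1 or cKO array 2. Of the 49 genes, 27 kept their call in all 6 fits that each left out an array, and 11 kept it in none. Those 11 were Gm6166, Gm13998, 1110015O18Rik, Gucy2f, Zbtb10, Rgs6, Gramd3, Pfkfb3, Palld, Cyp4f14 and Phyhd1. A further 7 kept it in 1 fit: Dpy19l3, Tmem44, Ngef, Zkscan2, Mir100, Gm23260 and Mir493. Cdh19 kept it in 2 fits, those without control array 1 or control array 2. Prex2 lost it without cKO array 2, Zfand1 without control array 2, and Kctd5 without control array 1 or 2.

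Fabp7 had the largest change. It encodes a fatty acid binding protein that carries polyunsaturated fatty acids in astrocytes and radial glia. Its log2 signal was 11.12, 12.49 and 12.55 in controls and 16.02, 16.15 and 15.92 in cKO arrays. The lowest cKO array was thus more than 3 log2 units above the highest control, and control array 1 was the lowest of all. The difference was 3.98 ± 0.33 (SE), a 15.7-fold rise (limma adjusted p = 0.000565), and it lay between 3.51 and 4.23 in all alternative fits. The 250 bases before the Fabp7 start are shown because this gene leads the comparison. They are from RefSeq, build GRCm38.p6, plus strand, chr10:57784673-57784922, with 1 copy of the core letters of nuclear receptor sites, AGGTCA on either strand, in capitals. These letters were searched after the calls were known.
Fabp7: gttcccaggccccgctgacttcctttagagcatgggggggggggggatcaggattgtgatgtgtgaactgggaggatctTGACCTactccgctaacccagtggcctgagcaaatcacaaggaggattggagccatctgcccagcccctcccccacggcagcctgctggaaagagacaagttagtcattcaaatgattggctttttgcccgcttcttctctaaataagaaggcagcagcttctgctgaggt

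The match starts at position -171 from the gene start, on the opposite strand, and the window held no E-box. AGGTCA was found in the promoter windows of 4 of the 26 genes past the threshold that had one (15.4%), against 12.7% of tested genes, so its share among the changed genes was near the background. A match is a description of the letters and not a measured binding site.

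In the list of homeostatic astrocyte markers 2 genes fell and none rose. The list was written with earlier results of these data known, so its count of calls is not separate evidence on such markers. Etnppl, an astrocyte phospholyase that breaks down phosphoethanolamine, was at 11.21, 10.45 and 10.94 in controls and at 8.84, 8.59 and 8.35 in cKO arrays. It fell by 2.27 ± 0.20 on the log2 scale (adjusted p = 0.000565), to a level that controls exceeded 4.83-fold. Prex2, an exchange factor for the small GTPase RAC, was at 11.61, 10.63 and 10.96 in controls and at 9.54, 9.47 and 9.66 in cKO arrays. All 3 cKO arrays lay below the lowest control, and the fall was 1.51 ± 0.21. Its adjusted p was 0.00922, and 0.0612 without cKO array 2.

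These were the 2 of 24 tested homeostatic astrocyte markers that passed. The list as a whole had 16 positive and 8 negative differences and a median of 0.06, and 0.01 without control array 2, beside 0.03 over all genes. Gpld1, a phospholipase that releases anchored proteins, was at -0.95 with non-overlapping arrays (adjusted p = 0.062, and 0.0294 with each array centred on the median gene). Slc1a2, the main glutamate transporter of astrocytes, was at -0.30 and Aqp4, the water channel of astrocyte endfeet, at 0.43, and neither passed. With quantile normalization Slc1a2 was at -0.42 and did pass (adjusted p = 0.0208). The summed signal of the 24 markers overlapped between the groups, at 18.26 to 18.41 in controls and 18.28 to 18.38 in cKO arrays on the log2 scale.

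None of 13 tested reactive astrocyte genes passed. Gfap, their defining filament gene, was at 10.90, 11.43 and 11.65 in controls and at 12.02, 13.00 and 12.23 in cKO arrays. The groups did not overlap, but the difference of 1.09 ± 0.45 missed the threshold (adjusted p = 0.397) and was 0.80 without cKO array 2. Of 15 radial glia and progenitor genes, Fabp7 alone passed. Vcam1, an adhesion molecule of neural stem cells, was at 0.69 (adjusted p = 0.0526, and 0.0425 with quantile normalization), Ednrb, an endothelin receptor of glia, at 0.72 (adjusted p = 0.250), and the list median was 0.10, and 0.06 without cKO array 2. Nes, a filament gene of progenitors, was below the filter on dim features on all 6 arrays.

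Mmp14 and Plat, which act in cell-surface proteolysis, both rose. Mmp14, a membrane-bound metalloprotease that cleaves collagen and activates other proteases, was at 6.89, 7.03 and 6.96 in controls and at 8.87, 8.91 and 9.09 in cKO arrays. All cKO arrays lay above all controls, by 3.98-fold on average, and the rise of 1.99 ± 0.13 had the smallest adjusted p of all genes, 0.000195. Plat, tissue plasminogen activator, rose by 1.69 ± 0.15 from 8.998, 9.272 and 9.146 to 10.70, 11.09 and 10.68. They were the 2 of 17 tested proteolysis genes that passed. The inhibitor Reck was at -0.21 and the inhibitor Timp2 at 0.13, neither past the threshold, and the list median was 0.03, as over all genes.

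Egfl6, a secreted protein with EGF repeats, was at 7.02, 7.27 and 6.65 in controls and at 8.70, 8.82 and 8.96 in cKO arrays. It rose by 1.84 ± 0.20 (adjusted p = 0.00202) and was the only one of 17 extracellular matrix genes to pass, in a list with 11 negative differences. The basement membrane chain Lama2 was at -0.48 (adjusted p = 0.246). Ncan, neurocan, a chondroitin sulphate proteoglycan of perineuronal nets, was at 10.06, 10.40 and 10.26 in controls and at 11.13, 11.22 and 11.40 in cKO arrays. Its rise of 1.01 ± 0.12 was the only one among 18 perineuronal matrix genes. Vcan, versican, another proteoglycan of the same family, was at -0.44 with all cKO arrays below the controls (adjusted p = 0.222). Spon2, a matrix protein of the spondin family, rose by 0.69.

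Cdkn1a and Id2 stood out among regulators of growth. Cdkn1a encodes p21, an inhibitor of cyclin-dependent kinases and a target of p53. It was at 6.54, 6.81 and 7.02 in controls and at 8.74, 8.35 and 8.32 in cKO arrays, a rise of 1.68 ± 0.16 (adjusted p = 0.00079). Of 20 tested genes of cyclin-dependent kinase inhibitors and p53 targets it was the only one past the threshold; Gadd45g was at 0.28. Rnf144b, a ubiquitin ligase known as a p53 target and not in that list, rose by 0.80 ± 0.08. None of 10 cell cycle genes passed, and their median was 0.01.

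Id2, an inhibitor of basic helix-loop-helix factors that responds to BMP signals, rose by 1.41 ± 0.14 from 12.36, 12.28 and 12.06 to 13.35, 13.89 and 13.69. The groups did not overlap, and cKO array 1 was the lowest of its group. Of 21 genes of the ID and BMP group, 13 had a negative difference and Id2 alone passed. The receptor gene Bmpr1b was at 0.39 and the Notch target Hey1 at 0.96, with adjusted p of 0.154 and 0.185.

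Npas2 was the 1 of 18 tested core clock genes that passed. It encodes the partner that can replace CLOCK beside BMAL1. Its signal was 7.80, 8.27 and 8.09 in controls and 9.29, 9.31 and 9.70 in cKO arrays, a rise of 1.38 ± 0.15, or 2.61-fold (adjusted p = 0.00243). Per3 was at 8.76, 8.32 and 8.51 in controls and at 8.13, 8.06 and 7.93 in cKO arrays. Its difference of -0.50 did not pass (adjusted p = 0.159), and its arrays did not overlap. Clock was at 0.22 (adjusted p = 0.187) and Cry1 at 0.16 (adjusted p = 0.470).

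Clock output genes showed no call among 14 tested. Rgs16, a regulator of G protein signalling with a strong daily rhythm in the hypothalamus, was at 0.66 with non-overlapping arrays (adjusted p = 0.200). Of the 14, 11 had negative differences and the median was -0.06. Hlf, a PAR bZIP factor that binds D-boxes, was at -0.19.

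**Figure D2:**
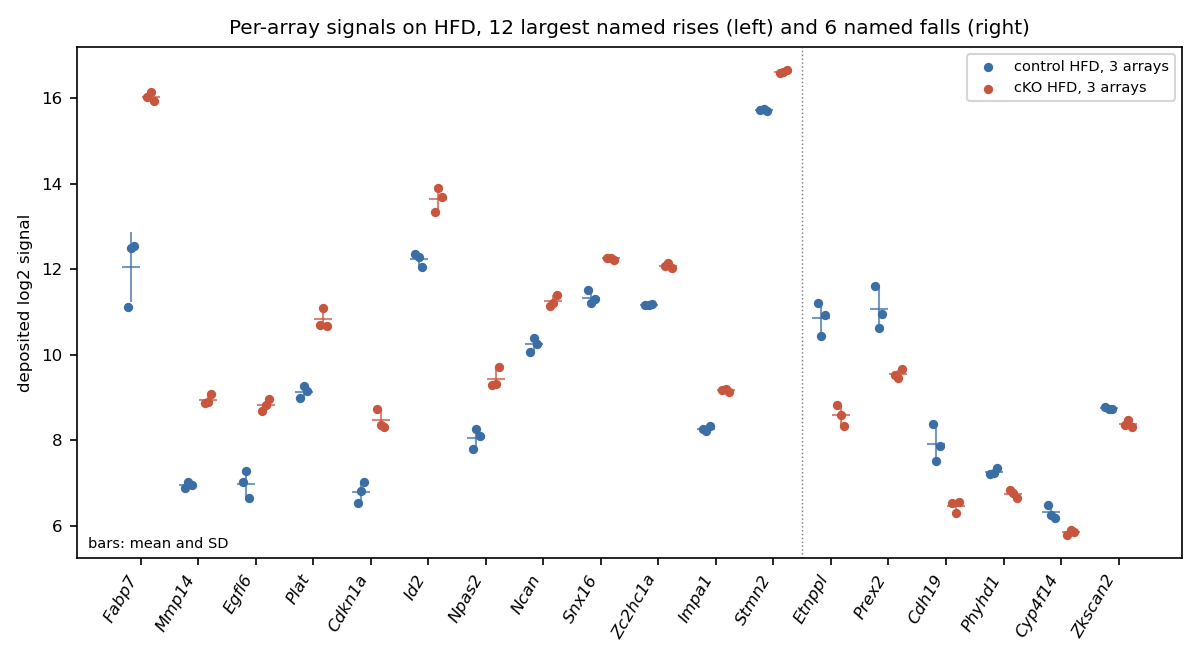
Deposited log2 signal (y axis) of the 12 largest rises and the 6 falls among named genes past the threshold, on 3 control (blue) and 3 cKO (red) HFD arrays; points are arrays and bars the mean and SD. For each gene the points of one colour lie wholly above those of the other, with the widest control spread in Fabp7, Prex2 and Cdh19.

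The E-box CACGTG, which BMAL1 and its partners bind, was present before the start of a single changed gene. It was searched in the 250 bases before each start, where its reverse complement is the same letters, in 26 of the 49 genes with a RefSeq window. It was present for 1 of the 26 (3.85%), against 9.68% of tested genes. The D-box TTATGNAA, searched on both strands, was present for 1, Cyp4f14, against 2.32% of tested genes. The absence of a motif from this window does not bear on distant sites. The gene with the E-box was Pfkfb3, shown for that reason. Another RefSeq window of this gene, chr2:11553930-11554179, held none of the motifs searched. The window shown is chr2:11502091-11502340 on the minus strand of GRCm38.p6, from RefSeq, with the E-box in capitals at position -53 from the start.
Pfkfb3: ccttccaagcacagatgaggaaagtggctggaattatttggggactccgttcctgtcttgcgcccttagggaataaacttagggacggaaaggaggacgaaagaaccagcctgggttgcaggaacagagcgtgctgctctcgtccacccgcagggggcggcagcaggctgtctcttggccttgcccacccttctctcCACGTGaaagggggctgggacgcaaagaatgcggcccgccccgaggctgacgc

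Pfkfb3 makes fructose 2,6-bisphosphate, the activator of phosphofructokinase and hence of glycolysis. It was at 7.93, 8.06 and 8.14 in controls and at 8.49, 8.38 and 8.57 in cKO arrays. The rise of 0.44 ± 0.08 passed narrowly (adjusted p = 0.0459), and the call was lost when any of the 6 arrays was left out, with an adjusted p of up to 0.203. It was the only one of 25 glycolysis and lactate genes to pass. The list had 19 positive and 5 negative differences and a median of 0.12, and 0.06 without cKO array 2. The muscle glycogen phosphorylase Pygm was at 0.38 and the aldolase gene Aldoa at 0.19.

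Among lipid genes, calls lay in both directions. Fabp5, a relative of Fabp7, rose by 0.78 ± 0.10 from 7.29 on each control array to 8.07 ± 0.06 (SD, n = 3) in cKO arrays. It lies in the chromosome 3 segment described below. Fabp3, the heart-type member, was at 0.26 (adjusted p = 0.312). These genes belong to a list of 16 tested genes of fatty acid binding and lipid droplets, of which 2 passed and 13 were positive. Phyhd1, which resembles the peroxisomal phytanoyl-CoA hydroxylase, fell by 0.51 from 7.21, 7.23 and 7.35 to 6.83, 6.78 and 6.64 (adjusted p = 0.0365). Cyp4f14, a cytochrome P450 that hydroxylates fatty acids and eicosanoids, fell by 0.46 from 6.49, 6.27 and 6.19 to 5.80, 5.90 and 5.86 (adjusted p = 0.0483). They were the 2 of 20 tested fatty acid oxidation genes that passed, and the list median was 0.01. Phyhd1 and Cyp4f14 both lost the call when any of the 6 arrays was left out. With quantile normalization they also missed the threshold (limma adjusted p = 0.0551 and 0.0784). Among 24 genes of cholesterol and fatty acid synthesis none passed; Fdft1, squalene synthase, was at 0.22.

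Genes of oxidative phosphorylation were slightly higher almost throughout, though none passed. Of 42 tested subunit genes, 41 had a positive difference, with a median of 0.11 against 0.03 over all genes; 12 of them had all cKO arrays above the controls, against 13.1% of all tested genes. The median was between 0.09 and 0.13 when an array was left out. Ndufa1, of complex I, was at 0.27 and Sdhc, of complex II, at 0.28 (adjusted p = 0.258 and 0.259). Proteasome genes had 25 of 27 differences positive (median 0.08, and 0.01 without control array 2) and ribosomal protein genes 13 of 14 (median 0.11, and 0.05 without cKO array 2). Psmd8 was at 0.28 and Rplp0 at 0.26, neither past the threshold.

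Stress response genes gave no call in the 4 lists that follow. A further list, of glucocorticoid responsive genes, had 1 call among 18 tested, Cdkn1a, and a median of 0.09. Of 25 genes of the unfolded protein and integrated stress responses, 16 were positive with a median of 0.06, which was -0.02 without cKO array 2. Atf4, the transcription factor of the integrated stress response, was at 0.25 and Creld2, a chaperone of the endoplasmic reticulum, at 0.40, with adjusted p of 0.312 and 0.371. Of 23 NRF2 and oxidative stress genes, 20 were positive and the median was 0.15, and 0.09 without control array 1; Srxn1, sulfiredoxin, was at 0.23 and the metallothionein Mt3 at 0.48. Heat shock genes had a median of 0.05 over 17 genes. Of 13 immediate early genes 11 were positive with a median of 0.20, but none had non-overlapping arrays. Egr1, Nr4a1 and Arc were each highest on cKO array 3, and the median without that array was 0.07.

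**Figure D3:**
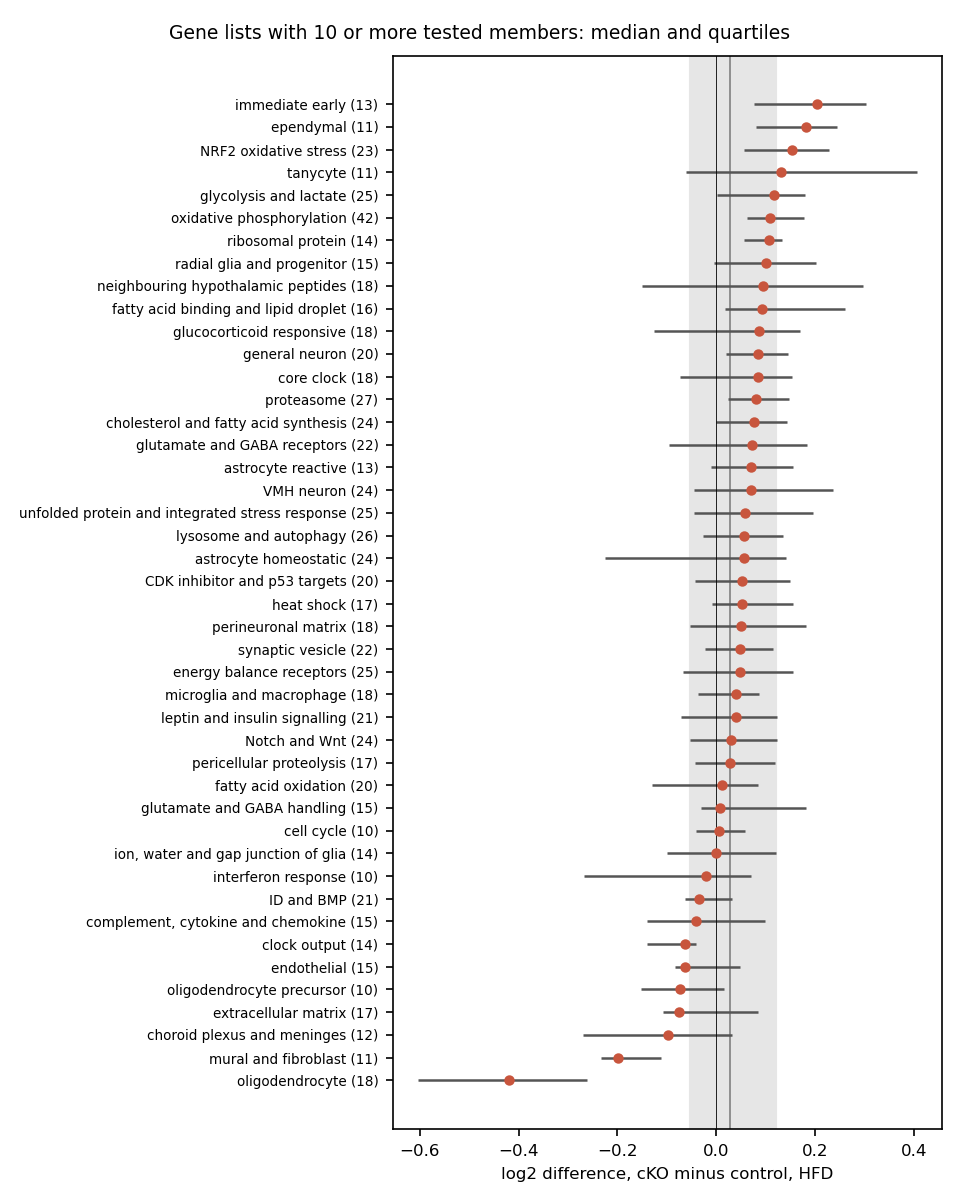
Median (red points) and quartiles (lines) of the log2 difference between cKO and control arrays on HFD (x axis) for the gene lists with at least 10 tested members, whose number is in brackets (y axis). The grey band and line are the quartiles and median (0.03) of all tested genes. The oligodendrocyte list lies lowest at -0.42, with its quartiles outside the band.

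Oligodendrocyte genes were lower as a list without a single call. Of 18 tested markers, 15 were negative, 13 had all cKO arrays below all controls against 7.08% of tested genes, and the median was -0.42. It lay between -0.51 and -0.36 when an array was left out. The list was also lower in cKO arrays on SD, with a median of -0.57 and 17 of 18 differences negative. Cldn11, the tight junction protein of myelin, was at 10.15, 10.10 and 10.42 in controls and at 9.69, 9.20 and 9.45 in cKO arrays. Its SE of 0.43 was estimated from all 12 VMH arrays, those on SD included, and left the adjusted p at 0.520. The myelin proteolipid gene Mal was at -0.67, the connexin gene Gjc3 at -0.62 and Mbp, myelin basic protein, at -0.34, with adjusted p from 0.394 to 0.694.

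Olig2, the transcription factor of the lineage, lay the other way at 0.50 (adjusted p = 0.111). It was at 8.79, 8.99 and 8.93 in controls and at 9.28, 9.49 and 9.43 in cKO arrays. The summed signal of the 20 oligodendrocyte markers on the array was 15.15 to 15.42 in controls and 14.57 to 14.86 in cKO arrays on the log2 scale. In bulk tissue fewer cells of a type and less RNA per cell cannot be told apart. With the mean of the tested markers as a covariate 127 genes passed, 109 higher and 18 lower, including 47 of the 49. Ednrb also passed (adjusted p = 0.00679). Olig2 passed too (adjusted p = 0.0429), but it is itself part of that mean and lies opposite to most of its members. Its call in that fit is therefore not separate evidence. The marker mean itself differed between the genotypes, so that fit cannot separate myelin content from genotype. The part of myelin content in the other differences was not tested. Cdh19, a cadherin of glia and not in the list, fell by 1.45 ± 0.21 from 8.38, 7.51 and 7.87 to 6.53, 6.31 and 6.57 (adjusted p = 0.0161).

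Markers of other cell types gave no call. None of 18 microglia and macrophage, 15 endothelial, 11 mural and fibroblast, 12 choroid plexus and meninges, 11 ependymal or 11 tanycyte genes passed. The mural and fibroblast list had the lowest median of these at -0.20, with 9 of 11 negative; Pdgfrb, the pericyte receptor, was at -0.24. The endothelial VEGF receptor gene Kdr was at -0.17. Ependymal genes had 10 of 11 positive with a median of 0.18; leaving out control array 2 turned it to -0.03, and leaving out control array 3 gave 0.31. Fam183b, the ependymal gene with non-overlapping arrays, was at 0.46 (adjusted p = 0.371).

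Among neuronal genes Stmn2 rose. It encodes a microtubule regulator of growing axons. It was at 15.71, 15.74 and 15.70 in controls and at 16.57, 16.61 and 16.65 in cKO arrays, with little spread, and the rise was 0.89 ± 0.07 (adjusted p = 0.000565). It was the only call among 20 general neuron genes, whose median was 0.09; Tubb3, neuronal tubulin, was at 0.45 (adjusted p = 0.160). Stmn2 also lies in the chromosome 3 segment described next.

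Further genes past the threshold were in none of the lists. Ngef, a neuronal exchange factor in ephrin signalling, rose by 0.40, Rgs6, a regulator of G protein signalling, by 0.45, and Tiam2, a RAC exchange factor, by 0.60. Arhgef3, an exchange factor for RHOA, rose by 0.76 and Palld, an actin-binding protein, by 0.39. Dpy19l3, a mannosyltransferase, rose by 0.82 and Kctd5, an adaptor of a ubiquitin ligase, by 0.66. Ccdc60, Gucy2f, Tmem44 and Gramd3 rose by 0.58, 0.54, 0.50 and 0.45. Of the genes in this paragraph, only Tiam2, Arhgef3 and Ccdc60 kept the call in all 6 fits that left out an array.

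None of 24 VMH neuron genes passed, and their median was 0.07. Cckbr, the receptor for cholecystokinin, was at 7.67, 8.17 and 7.68 in controls and at 8.53, 8.46 and 8.51 in cKO arrays, a difference of 0.66 with non-overlapping arrays (adjusted p = 0.216). Nr5a1, the defining transcription factor of the nucleus, was at -0.07. None of 25 receptors of energy balance and 21 genes of leptin and insulin signalling passed; the vasopressin receptor gene Avpr1a was at 0.52 (adjusted p = 0.129, and 0.048 in a fit of only the 6 HFD arrays) and Pik3r1, a subunit of the insulin-activated kinase PI3K, at 0.17.

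A run of neighbouring genes on chromosome 3 rose together. Of the 49 genes 13 lay on this chromosome, 1.65% of its 786 tested genes, and 11 of them lay between Pex2 and Snx16. All 18 tested genes of that stretch had a positive difference, with a median of 0.60, and the 13 that are not predicted genes had differences between 0.45 and 0.96. Snx16, a sorting protein of endosomes, was at 11.51, 11.20 and 11.30 in controls and at 12.26, 12.27 and 12.23 in cKO arrays. Impa1, which releases inositol from its phosphate, was at 8.28, 8.21 and 8.34 in controls and at 9.18, 9.20 and 9.14 in cKO arrays. Zc2hc1a was at 11.16, 11.17 and 11.20 in controls and at 12.09, 12.15 and 12.02 in cKO arrays. In each of the 3 genes the groups were separated and the cKO arrays lay close together. In VMH on SD, every gene of the stretch that is not predicted also had a positive difference. There Zc2hc1a was at 0.95, Tpd52 at 0.83 and Impa1 at 0.60, and the lowest of them was Pex2 at 0.45. The negative differences on SD were those of the predicted genes Gm6194 (-0.46), Gm18822 (-0.16) and Gm15466 (-0.14).

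The functions of the segment's genes differ: Pex2 builds peroxisomes, Pkia inhibits protein kinase A, Pag1 is a membrane adaptor of lymphocyte signalling and Fabp5 binds fatty acids. Tpd52 rose by 0.74, Pkia by 0.64, Pex2 by 0.63, Pag1 by 0.57, Zfand1 by 0.55 and Zbtb10 by 0.45, while Zfp704 was at 0.45 (adjusted p = 0.0649, and 0.0137 with quantile normalization). The nearest tested genes on either side that are not predicted, Zfhx4 and Ralyl, were at 0.02 and -0.04. Beyond Zfhx4 the transcript 1110015O18Rik, outside the segment, was at 0.68 and passed (adjusted p = 0.0373). Of the 8 tested neighbours outside, predicted genes included, 7 were positive, with a median of 0.29. The ends of the rise are therefore not sharply placed. Outside the segment 38 genes passed, 28 higher and 10 lower. The same genes can be read in BAT of the same genotypes on HFD, where 12 of 18 were positive and 9 had an unadjusted p under 0.05, although none passed the threshold. Among those 9, Hey1 at -1.22 and Gm15466 at -0.47 lay the other way. Snx16 was at 1.09 and Zbtb10 at 1.19 in BAT, and Stmn2 at -0.22. Zfhx4, beside the segment, was at 1.06 in BAT.

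**Figure D4:**
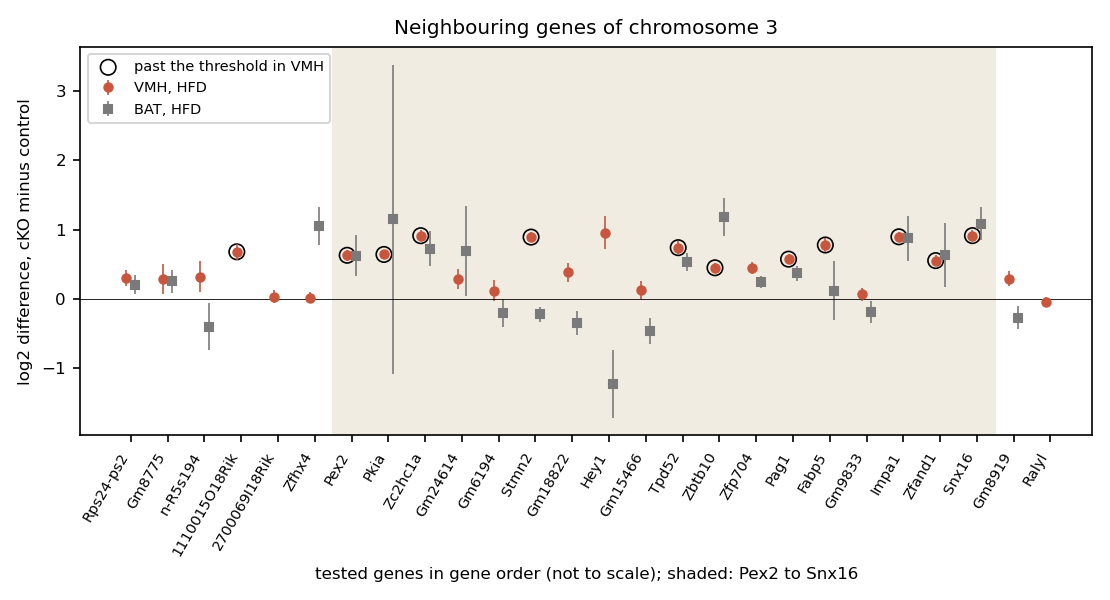
Log2 difference between cKO and control arrays on HFD (y axis) for tested genes of chromosome 3 in gene order (x axis, not to scale), in VMH (red circles) and BAT (grey squares), with SE bars; black rings mark genes past the threshold in VMH. All 18 genes in the shaded stretch from Pex2 to Snx16 are above 0 in VMH, and Zfhx4 and Ralyl beside it are near 0 in VMH. The ringed gene outside the stretch is 1110015O18Rik.

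The 2 microRNA genes past the threshold both fell. The feature of Mir493 was at 11.31, 11.41 and 11.28 in controls and at 10.77, 10.23 and 10.25 in cKO arrays, and that of Mir100 at 7.14, 6.86 and 7.11 and at 6.44, 6.59 and 6.53. The falls were 0.92 ± 0.14 (adjusted p = 0.0238) and 0.52 ± 0.09 (adjusted p = 0.0408) on the log2 scale. The features do not name an arm of the hairpin, and arrays of this kind label total RNA, so precursor and mature forms cannot be told apart. The mature sequences, from RefSeq with build GRCm38.p6, are shown with the seed, bases 2 to 8, in capitals, since the seed sets which messages a microRNA can pair with. Mir100 lies at chr9:41531437-41531492 and Mir493 at chr12:109580243-109580305, both on the plus strand, from the first base of one arm to the last of the other.
miR-100-5p: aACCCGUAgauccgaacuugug
miR-100-3p: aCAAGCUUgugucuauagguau
miR-493-5p: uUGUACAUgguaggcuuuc
miR-493-3p: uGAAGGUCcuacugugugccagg

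The 4 arms share no seed with each other. miR-100-5p shares its seed with miR-99a-5p, whose gene Mir99a was at -0.29 ± 0.23 (adjusted p = 0.671), and with miR-99b-5p, whose gene was not tested. Over all 322 tested microRNA genes 225 were negative, the median was -0.08, and 45 had all cKO arrays below the controls against 6 above, beside 7.08% of all tested genes below and 13.1% above. Gene copies such as Mir669a-4 and Mir669a-5 had identical values, so not every gene is a separate measurement. The class mean overlapped between groups, at 8.12, 8.26 and 8.21 in controls and 8.17, 8.04 and 8.05 in cKO arrays. Mir598 was at -0.63 (adjusted p = 0.060, and 0.0393 in a fit of only the 6 HFD arrays) and Mir337 at -0.36 (adjusted p = 0.0927). Small nucleolar RNA genes, which guide the modification of ribosomal RNA, lay the other way, with 52 of 59 positive and a median of 0.21. One of them, Snord58b, rose by 0.60 ± 0.07 from 14.14, 14.10 and 14.08 to 14.60, 14.85 and 14.67, and Snord42a was at 0.62 (adjusted p = 0.115). Protein coding genes had a median of 0.02. These classes were formed after the values were seen.

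Predicted and non-coding genes were also among those past the threshold. The non-coding RNA 2900052N01Rik fell by 1.47 ± 0.14, from 7.70, 7.32 and 7.03 to 5.84, 5.87 and 5.93, and kept its call in all 6 fits that left out an array. The predicted genes Gm14328, Gm6166, Gm10561 and Gm13998 rose by 1.06, 1.04, 0.97 and 0.89. Probes of a pseudogene can also bind transcripts of its parent gene, so these values are uncertain. The transcript 1110015O18Rik rose by 0.68, and the predicted gene Gm23260 fell by 0.57. Zkscan2, a zinc finger factor, fell by 0.38 from 8.78, 8.74 and 8.74 to 8.37, 8.47 and 8.30.

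On SD, in separate arrays of the same genotypes that share the fit's estimate of spread, 46 of the 49 genes had the same sign and 42 were separated the same way, which 9.93% of all genes showed in either direction. On SD 44 genes passed, or 0.271%, and 34 of the 49 were among them. Egfl6 was at 1.84 on HFD and 1.37 on SD, Npas2 at 1.38 and 1.10, and Ncan at 1.01 and 0.98. Cdkn1a was at 1.68 on HFD and 2.28 on SD, and Id2 at 1.41 and 1.87. Cdh19 was at -1.45 on HFD and -1.18 on SD, where it missed the threshold (adjusted p = 0.0591).

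The interaction of genotype and diet, which tests whether the 2 differences are unequal, passed for 0 genes by limma, with 911 at an unadjusted p under 0.05 (5.62% of 16211). Of the 49 genes, 10 had an unadjusted interaction p under 0.05. Among them were Cdkn1a and Id2, whose rises were smaller on HFD (adjusted p = 0.856 and 0.863), and Impa1, whose rise was larger on HFD (adjusted p = 0.856); each failed the adjustment. The smallest interaction p was that of Snord58b, with a limma adjusted p of 0.452. Leaving small RNAs and predicted genes aside, the 4 highest interaction statistics were those of Klhl34, Olig2, Avpr1a and Mrm3, and the 4 lowest those of Zkscan2, Fam214a, Mertk and Mysm1, all with an adjusted p of 0.856. Olig2 was at 0.50 on HFD and -0.29 on SD. Mir493 was at -0.92 and -0.13, and Snord58b at 0.60 and -0.11.

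**Figure D5:**
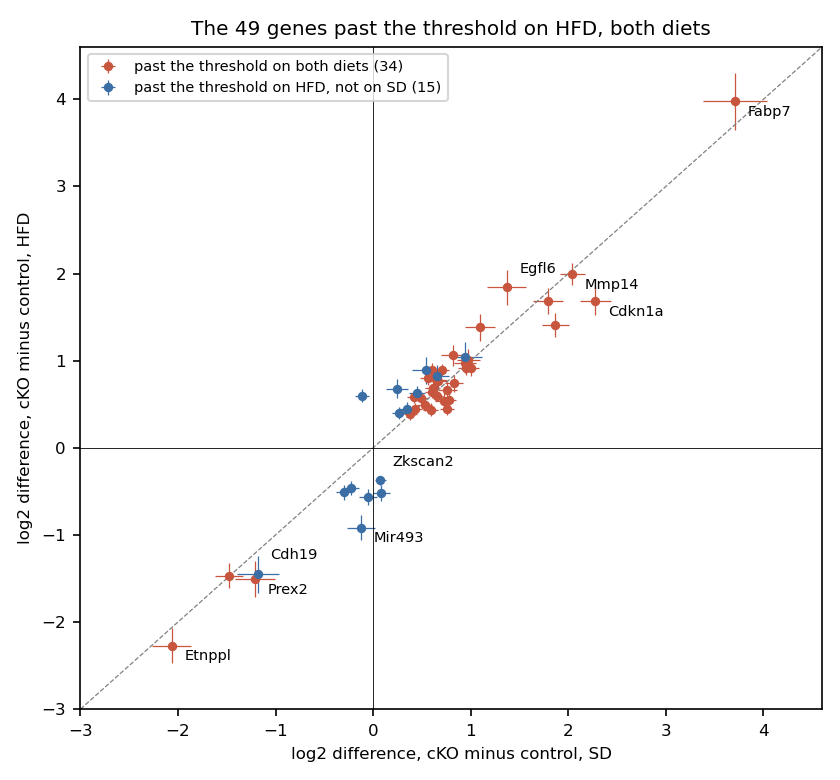
Log2 difference between cKO and control arrays on SD (x axis) and HFD (y axis) for the 49 genes past the threshold on HFD, with SE bars; the dashed line marks equal differences. Red points are the 34 genes past the threshold on both diets and blue points the 15 past it on HFD and not on SD. Most points lie near the line, with Zkscan2 at -0.38 on HFD and 0.07 on SD.

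In BAT on HFD 0 of 17124 genes passed by limma (1414 at an unadjusted p under 0.05, 8.26%). Of the 49 VMH genes, 36 were tested there, 20 had the same sign, and 7 had an unadjusted p under 0.05. Mmp14 was at 0.21, Id2 at 0.42, Cdkn1a at -0.22 and Plat at -0.03 in BAT, while Fabp7, Egfl6, Npas2 and Etnppl were below the filter of that tissue. Of the 38 genes outside the chromosome 3 segment, 25 were tested in BAT, and 1 had an unadjusted p under 0.05. That gene was Cdh19, at 1.38 in BAT, opposite in sign to VMH. The difference between tissues was not tested.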

How the data were processed

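The deposited values are log2 signals, 1 column for each of 24 Affymetrix arrays. The submitters' processing notes list Affymetrix Expression Console 1.1.1 and PLIER 2.0 without saying what each did. How arrays were normalized against each other, and the genome build, is not given in the sources used here. The values have a ceiling, which no gene past the threshold reached.

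Features were named from the platform annotation: 30604 of 72688 had 1 symbol, 2146 several and 33206 none, besides 6732 controls. Symbols of 827 were updated through a RefSeq table of GRCm38.p6. A feature was tested where its mean over the 12 VMH arrays reached the table's median, 5.51, and a gene with several features took its brightest, which left 16211 genes. limma 3.58.1 in R 4.3.3 (lmFit, eBayes) fitted group means over the 12 VMH arrays, with no block or covariate; the 17124 BAT genes had a fit of their own. Two-sided p-values were adjusted by Benjamini-Hochberg over all tested genes of a comparison, with a threshold of 0.05. Errors are SE unless named otherwise. The number of arrays, 3 a group, limits the precision.

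Per-array values are given for the 12 largest rises and up to 8 largest falls past the threshold that are neither predicted genes nor small RNAs, and for further genes the text turns on. Of the 46 gene lists, members past the threshold and up to 4 by smallest p could be named; the median and count of a list are a description with no test. The members and lists were chosen with earlier results of these data known. The microRNA, small nucleolar RNA and protein coding classes and the AGGTCA search were added after the values were seen. The fit was tested on simulated data. Alternatives were quantile normalization, median centring, a linear pseudocount of 16, no filter or a stricter one, the mean of a gene's features, another prior, only the 6 arrays, array weights, a replicate block, marker covariates and omission of each array in turn. Fits added after seeing the data were those without pituitary genes, without small RNAs and with protein coding genes only.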

Additional observations from a re-analysis of the deposited data

Results flagged for a closer look

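In 7 named genes every cKO array lay on one side of the controls on HFD and on the other side on SD. Klhl34, Zkscan2, Fam214a, Mertk and Mysm1 were among the genes listed above for the highest or lowest interaction statistics. Such a choice favours differences of opposite sign, so the count of 7 largely reflects how genes were picked. The share of all tested genes with this pattern is not given, so the count has no background to be compared with. Klhl34 was at 0.43 on HFD and -0.34 on SD, an interaction of 0.76. Fabp3 was at 0.26 and -0.22, an interaction of 0.48, and Fdft1 at 0.22 and -0.23, an interaction of 0.44. Zkscan2 was at -0.38 and 0.07, an interaction of -0.45, and Fam214a at -0.35 and 0.21, an interaction of -0.55. Mertk, a receptor by which glia engulf debris, was at -0.23 and 0.36, an interaction of -0.58, and Mysm1 was at -0.29 and 0.17, an interaction of -0.46. None of the 7 interactions passed the adjustment over all genes (limma adjusted p = 0.856 for each).

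Features without a single gene symbol were outside the gene comparison. In a fit of 31741 features that included 15292 of them, 53 features passed on HFD, and 19 of these had no single symbol, 2 higher and 17 lower in cKO arrays. The lowest was feature TC0900002004.mm.1, at 11.71, 11.65 and 11.49 in controls and at 10.22, 10.25 and 10.41 in cKO arrays, a difference of -1.32 ± 0.14 (limma adjusted p = 0.00604). The highest was TC1400001972.mm.1, at 1.01 ± 0.15 (adjusted p = 0.0346). Groups of 3 arrays are too small for a test of single outlying arrays.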

How the results depend on the processing

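The 49 genes past the threshold on HFD became 121 with array weights and 127 with the oligodendrocyte marker mean as a covariate; the cause was not tested. The count was 33 to 69 under the other planned settings that kept all 6 arrays and 31 to 39 when one was left out (without control array 1 or cKO array 2, 32; without control array 3 or cKO array 3, 31). It was 49 without pituitary hormone genes, which were not among the 49 to begin with. The count was 46 without microRNA and small nucleolar RNA genes, and 65 with protein coding genes only. Of the 49 genes, 24 kept their call in every alternative fit in which they were tested, and 0 changed sign. Some of the 24 were not among the tested genes of every fit. The labels give the groups the same replicate numbers, but same-numbered arrays did not deviate together (correlations of 0.04, -0.19 and -0.10 on HFD), so the numbers were not taken as pairs. With a replicate block 33 genes passed, 28 of them among the 49, and Bmal1 stayed at 0.24. Bmal1 was at 0.07 to 0.38 when an array was left out and at 0.22 to 0.30 otherwise. The interaction passed for 0 genes in every fit run, by limma. Among genes named without a call, Mbp (0.0121) and Nr5a1 (0.0900) changed sign with the oligodendrocyte covariate, a mean that includes Mbp. When an array was left out, 3 genes changed sign. Nr5a1 then ranged from -0.128 to 0.0410 (above 0 without control array 2), Pomc from -0.450 to 1.09 (below 0 without cKO array 2) and Npy from -0.103 to 1.47 (below 0 without cKO array 3). Quantile normalization moved the median of all genes from 0.03 to 0.07 and median centring to 0.00461, so list medians near 0 have no firm direction.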
